A study of Mus musculus with 22 samples.

Results

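The kidney both reabsorbs filtered glucose and makes new glucose, and 10 genes of these routes were followed in kidney RNA from 22 mice. They are the sodium-glucose cotransporter genes Slc5a1 and Slc5a2, the facilitative glucose transporter genes Slc2a1 and Slc2a2, the gluconeogenic enzyme genes Pck1, G6pc and Fbp1, and the glycolytic enzyme genes Hk1, Hk2 and Pkm. The rule takes genes by symbol and uses no measured value, all 10 were found among the 32858 genes of the deposited count table, and all 10 were among the 17131 genes with enough reads to be tested. Each kidney came from a male C57Bl6/J mouse aged 8 to 10 weeks, with no genetic change in any group. The mice fall into 4 groups: vehicle (n = 5), KW6002 (n = 6), cisplatin (n = 5), and cisplatin plus KW6002 (n = 6). Cisplatin, a platinum drug toxic to the kidney tubule, was injected at 3 mg/kg on each of 6 days. KW6002 (istradefylline), an adenosine receptor antagonist, was injected at 3 mg/kg every day from day -5 to day 7, and its carrier of DMSO, cremophor and saline served as vehicle. Kidneys were collected 72 hours after the last cisplatin injection. Each value is from 1 library of whole-kidney RNA, in which fewer cells of a type and less RNA per cell cannot be told apart.

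In the proximal tubule, SGLT2, the protein of Slc5a2, takes up most filtered glucose in the early segments, and SGLT1, the protein of Slc5a1, takes up much of the rest further along. Glucose then leaves the cell to the blood through GLUT2 (Slc2a2) and, in other and later segments, through GLUT1 (Slc2a1). Proximal tubule cells also run gluconeogenesis: Pck1 encodes cytosolic phosphoenolpyruvate carboxykinase, Fbp1 fructose-1,6-bisphosphatase, and G6pc the glucose-6-phosphatase that frees glucose. Hexokinases (Hk1, Hk2) and pyruvate kinase (Pkm) work in the opposite direction and are used mainly in more distal segments and in non-epithelial cells.

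Libraries held 26471762 to 40510754 counts, and log2 CPM of libraries of the same group correlated at 0.980 to 0.995 across genes. CPM is the usual count per gene scaled to library size, here after TMM normalization. All 10 proximal tubule marker genes of the list used here were lower with cisplatin than with vehicle, with a median log2 fold change of -1.52. Of all tested genes, 35.9% were lower. A separate list for S3, a late part of the proximal tubule, had all 4 markers lower (median -2.51). The fall was not limited to the proximal tubule. All 5 markers of the thick ascending limb (median -1.53) and all 3 of the distal convoluted tubule (median -4.59) were lower too. Of 4 collecting duct principal cell markers, 1 was lower and 1 higher. The summed level of the proximal tubule markers was 25177 to 26392 CPM in vehicle, 24987 to 26871 with KW6002, 5309 to 7988 with cisplatin, and 10933 to 15696 with cisplatin plus KW6002. The 4 tubular injury markers, Havcr1 and Lcn2 among them, summed to 16.8 to 23.1 CPM in vehicle, 1288 to 2423 with cisplatin, and 352 to 752 with cisplatin plus KW6002. Sample labels number 3 vehicle and 3 KW6002 mice in the 300s and the other 16 mice in the 500s, so the series of numbers was also used as a covariate.

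The stretches just upstream of Pck1, G6pc and Fbp1 are shown because these 3 gluconeogenic genes did not move together with cisplatin, and those of Slc2a1 and Slc2a2 because this pair moved in opposite directions. They were read from RefSeq on GRCm38.p6, cover up to 250 bases before the annotated start, and stop where the GENCODE gene begins. Each is on the strand of its gene, with motif matches in capitals.
Pck1, chr2:173152823-173153047, plus strand, GRCm38.p6: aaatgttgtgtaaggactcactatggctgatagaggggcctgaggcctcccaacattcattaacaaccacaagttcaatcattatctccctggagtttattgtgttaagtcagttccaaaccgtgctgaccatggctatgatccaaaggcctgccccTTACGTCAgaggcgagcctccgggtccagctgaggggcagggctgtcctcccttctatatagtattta
G6pc, chr11:101367466-101367560, plus strand, GRCm38.p6: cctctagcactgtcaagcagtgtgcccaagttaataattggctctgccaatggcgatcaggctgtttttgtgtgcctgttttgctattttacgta
Fbp1, chr13:62888283-62888532, minus strand, GRCm38.p6: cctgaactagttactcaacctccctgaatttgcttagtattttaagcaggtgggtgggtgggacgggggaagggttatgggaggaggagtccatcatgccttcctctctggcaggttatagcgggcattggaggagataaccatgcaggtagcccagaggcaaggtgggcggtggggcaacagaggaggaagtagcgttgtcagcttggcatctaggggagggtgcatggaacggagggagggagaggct
Slc2a1, chr4:119108495-119108710, plus strand, GRCm38.p6: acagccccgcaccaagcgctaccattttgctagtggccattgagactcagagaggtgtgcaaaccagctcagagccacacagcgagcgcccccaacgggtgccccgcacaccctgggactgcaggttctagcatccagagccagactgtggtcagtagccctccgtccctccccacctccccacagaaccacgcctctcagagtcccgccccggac
Slc2a2, chr3:28697653-28697902, plus strand, GRCm38.p6: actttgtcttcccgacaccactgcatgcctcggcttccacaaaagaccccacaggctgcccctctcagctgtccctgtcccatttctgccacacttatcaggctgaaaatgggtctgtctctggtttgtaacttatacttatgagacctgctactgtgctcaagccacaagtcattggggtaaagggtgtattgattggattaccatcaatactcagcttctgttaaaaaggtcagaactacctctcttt
Short runs of letters were searched on both strands in the 250 bases before the start. In Pck1 the capitals mark TTACGTCA, a variant of the cAMP response element. TTACGTCA was found in 1 of the 9 members with a RefSeq entry, Pck1, and in 0.447% of all 32851 promoters, and the canonical response element TGACGTCA was found in 0 members and 1.55% of promoters. The HNF4 letters CAAAGTCCA were found in 0 members and 0.384% of promoters. The hypoxia response core ACGTG was found in 4 members, Slc5a1, Slc2a1, Hk2 and Pkm, and in 16.6% of promoters. In Slc2a1 it lies beyond the printed stretch. A match is a run of letters only, and nothing was measured at these sites.

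In vehicle-treated kidneys, gluconeogenic genes and Slc5a2 stood far above the glycolytic members. On a scale of CPM per kilobase of exon, which allows genes to be compared, the level was 863 ± 162 for Pck1, 639 ± 50.8 for Fbp1, 306 ± 31.6 for G6pc, and 264 ± 31.6 for Slc5a2 (SD, n = 5). Slc2a2 followed at 52.5 ± 5.78 and Pkm at 32.5 ± 0.921. Hk1 at 20.5 ± 4.15, Slc5a1 at 19.8 ± 2.51, and Slc2a1 at 14.9 ± 3.37 came next, and Hk2 was last at 1.497 ± 0.709 CPM per kilobase. The ranges of G6pc and Slc5a2 overlapped, and those of Hk1, Slc5a1 and Slc2a1 overlapped one another, so the order within these sets is not fixed by 5 mice. The other neighbours in the order had ranges that did not overlap. With the length of the longest transcript in place of the merged exons, Pkm came to 66.8 CPM per kilobase and passed Slc2a2 at 54.2, and Hk1 came to 40.8. After cisplatin the order changed below the gluconeogenic genes: Slc2a1, at 52.2 ± 8.94 CPM per kilobase, stood at place 4 and Slc5a2, at 20.8 ± 10.8, at place 8 (SD, n = 5). The range of Slc2a1 there, 36.6 to 57.9, overlapped that of Pkm, 34.5 to 39.5, and the range of Slc5a2, 9.28 to 38.6, overlapped those of Slc2a1, Pkm, Slc2a2, Hk1 and Slc5a1. With longest-transcript lengths Pkm came to 75.6 CPM per kilobase in cisplatin mice, above Slc2a1 at 56.2, and Slc5a2 at 26.4 was above Slc2a2 at 23.9. With cisplatin plus KW6002, Slc5a2 was at place 4 again, with 121 ± 28.0 CPM per kilobase (SD, n = 6), though its range, 83.6 to 159.9, lay within that of G6pc, 70.7 to 234, and with longest-transcript lengths it stood above G6pc (154 against 142).

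**Figure D1:**
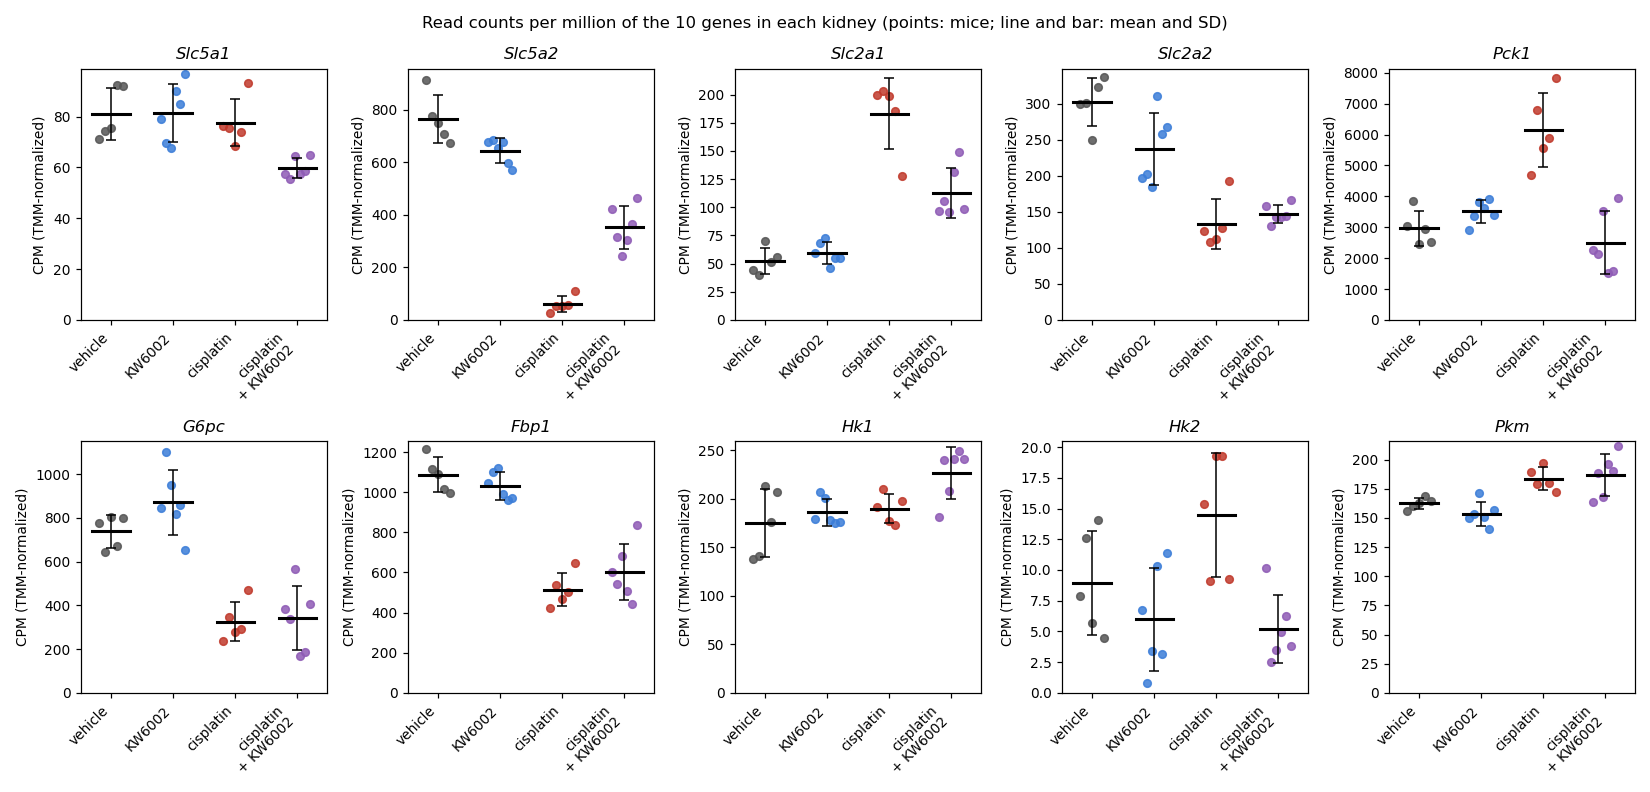
CPM of each of the 10 genes in each mouse, by group, on linear axes from 0, with points for mice and a line and bar for the mean and SD (vehicle n = 5, KW6002 n = 6, cisplatin n = 5, cisplatin plus KW6002 n = 6). Slc5a2, Slc2a2, G6pc and Fbp1 are lower in every cisplatin mouse than in any vehicle mouse. Slc2a1, Pck1 and, by a small margin, Pkm are higher in every cisplatin mouse. The share of all tested genes without overlap was not counted, and 70.5% of them passed at an adjusted p below 0.05 in edgeR.

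The first comparison asks what cisplatin did to these genes. Cisplatin lowered Slc5a2, Slc2a2, G6pc and Fbp1 and raised Slc2a1, Pck1 and Pkm, whereas Slc5a1, Hk1 and Hk2 did not pass the test. At an adjusted p below 0.05 this made 3 of 10 members higher, where 34.6% of all tested genes were higher, and 4 of 10 lower, where 35.9% were lower, so the numbers of calls were close to those of all genes. The median log2 fold change of the members was 0.03 and that of all tested genes was -0.01. The sizes of the changes ran from a 12.7-fold fall of Slc5a2 to a 3.50-fold rise of Slc2a1.

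Slc5a2 (chr7:128265657-128272430, plus strand, mm10) showed the largest change of the 10. Its level in the vehicle mice, in replicate order, was 912, 775, 750, 707 and 674 CPM, and in the cisplatin mice 26.9, 54.2, 52.8, 55.0 and 112 CPM. The groups did not overlap, and the highest cisplatin mouse was far under the lowest vehicle mouse. The log2 fold change was -3.67 ± 0.25 (SE, adjusted p = 1.11e-11), and it stayed between -4.01 and -3.48 when any 1 library was left out. In mice given cisplatin plus KW6002 the level was 421, 317, 242, 303, 365 and 463 CPM, above every cisplatin mouse and below every vehicle mouse. KW6002 added to cisplatin thus went with a 5.85-fold higher level (log2 2.55 ± 0.24, adjusted p = 6.65e-09), and the level remained 2.17-fold lower than in vehicle (log2 -1.12 ± 0.22, adjusted p = 0.000123). Exons of Slc5a2 overlap those of BC017158 on the other strand, and whether counting used strand is not given in the sources used here.

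Slc5a1 (chr5:33104219-33162870, plus strand) behaved otherwise. Vehicle mice had 71.2, 74.2, 75.5, 92.4 and 92.0 CPM, and cisplatin mice had 76.3, 75.7, 68.6, 73.9 and 93.2 CPM. These ranges overlapped almost fully, and the log2 fold change was -0.06 (95% interval -0.27 to 0.14, adjusted p = 0.569). Mice given cisplatin plus KW6002 had 57.6, 55.6, 64.7, 57.3, 58.5 and 64.7 CPM, below every mouse of the other 3 groups. Slc5a1 was 1.30-fold lower than with cisplatin alone (log2 -0.38 ± 0.094, adjusted p = 0.00163) and 1.36-fold lower than in vehicle (log2 -0.44 ± 0.094, adjusted p = 0.000339). The cisplatin comparison moved with the choice of libraries: with the label series as a covariate it was -0.25 (adjusted p = 0.00640), and among only the mice numbered in the 500s it was -0.26 (adjusted p = 0.0234). Scaled by library size alone it was 0.15, the opposite direction. The 3 vehicle mice numbered in the 300s had 71.2, 74.2 and 75.5 CPM and the 2 numbered in the 500s had 92.4 and 92.0 CPM.

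The exit transporters moved in opposite directions with cisplatin. Slc2a2 (chr3:28697903-28731359, plus strand) stood at 299, 301, 250, 323 and 336.7 CPM in vehicle mice and at 123, 109, 113, 127 and 193 CPM in cisplatin mice. All cisplatin mice were below all vehicle mice, with a log2 fold change of -1.18 ± 0.15 (SE, adjusted p = 1.80e-07). With cisplatin plus KW6002 the level was 158, 131, 142, 143, 144 and 166 CPM, within the range of the cisplatin mice. That difference was 0.15 on the log2 scale (95% interval -0.14 to 0.44, adjusted p = 0.371), and without cisplatin replicate 5 it was 0.32 (adjusted p = 0.0261). Against vehicle, Slc2a2 was lower by 2.05-fold with both drugs (log2 -1.03 ± 0.14, adjusted p = 1.15e-06).

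Slc2a1 (chr4:119108711-119137983, plus strand) rose from 44.4, 39.8, 70.4, 51.4 and 55.5 CPM in vehicle mice to 200, 203, 198, 186 and 128 CPM in cisplatin mice. The log2 fold change was 1.81 ± 0.16 (SE, adjusted p = 1.09e-09), with no overlap. With cisplatin plus KW6002 it was 96.3, 105, 95.5, 132, 149 and 98.5 CPM. These mice were all above the vehicle mice, by 2.15-fold (log2 1.11 ± 0.15, adjusted p = 2.20e-06). They were 1.62-fold below the cisplatin mice on the whole (log2 -0.70 ± 0.15, adjusted p = 0.000392), although cisplatin replicate 5, at 128 CPM, lay inside their range. Cisplatin replicate 5 also had the lowest Slc2a1 and the highest Slc2a2, Slc5a2, Slc5a1, G6pc, Fbp1 and Pck1 of its group, and its summed proximal tubule markers, 7988 CPM, were the highest of the 5. Exons of Slc2a1 overlap those of the antisense gene Gm12868.

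Pck1 separated from the other gluconeogenic members. Pck1 (chr2:173153048-173159273, plus strand) rose from 3032, 3845, 2454, 2945 and 2525 CPM in vehicle mice to 4705, 6800, 5553, 5873 and 7818 CPM with cisplatin. Every cisplatin mouse was above every vehicle mouse, at 2.08-fold (log2 1.05 ± 0.21, adjusted p = 0.000134). Mice given cisplatin plus KW6002 had 2273, 2144, 3518, 1516, 1587 and 3955 CPM, all below the lowest cisplatin mouse. The fall against cisplatin was 2.46-fold (log2 -1.30 ± 0.20, adjusted p = 1.09e-05). Against vehicle the difference was -0.24 on the log2 scale (95% interval -0.66 to 0.17, adjusted p = 0.305), and the ranges overlapped. Pck1 alone held 0.526% to 0.842% of all counts in cisplatin mice, 0.230% to 0.362% in vehicle mice, and 0.159% to 0.398% in mice given both drugs.

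G6pc (chr11:101367561-101377903, plus strand) fell from 777, 643, 804, 671 and 800 CPM in vehicle mice to 239, 345.95, 278, 294 and 472 CPM with cisplatin. The groups did not overlap, and the fall was 2.27-fold (log2 -1.18 ± 0.24, adjusted p = 0.000162). With cisplatin plus KW6002 the mice spread widely, at 383, 339.4, 565, 171, 186 and 408 CPM. Replicates 4 and 5 of that group were the lowest of all 22 mice for G6pc and for Pck1. The difference from cisplatin alone was 0.07 on the log2 scale (95% interval -0.41 to 0.55, adjusted p = 0.815), and it changed sign when cisplatin replicate 1 or cisplatin plus KW6002 replicate 3 was left out (-0.02 and -0.13). Against vehicle, G6pc stayed lower with both drugs (log2 -1.11 ± 0.23, adjusted p = 0.000249).

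Fbp1 (chr13:62864753-62888282, minus strand) resembled G6pc in its fall, from 1214, 1117, 1090, 1016 and 998 CPM in vehicle mice to 423, 535.5, 468, 501 and 645 CPM with cisplatin. The log2 fold change was -1.08 ± 0.13 (SE, adjusted p = 1.23e-07), with no overlap. Mice given both drugs had 600, 544, 683, 506, 443 and 836 CPM, which overlapped the cisplatin mice. That difference was 0.23 on the log2 scale (95% interval -0.03 to 0.48, adjusted p = 0.123). It was 0.32 (adjusted p = 0.0314) without cisplatin replicate 5 and 0.30 (adjusted p = 0.0332) without cisplatin plus KW6002 replicate 5. Fbp1 remained below vehicle by 1.81-fold (log2 -0.85 ± 0.12, adjusted p = 3.22e-06).

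**Figure D2:**
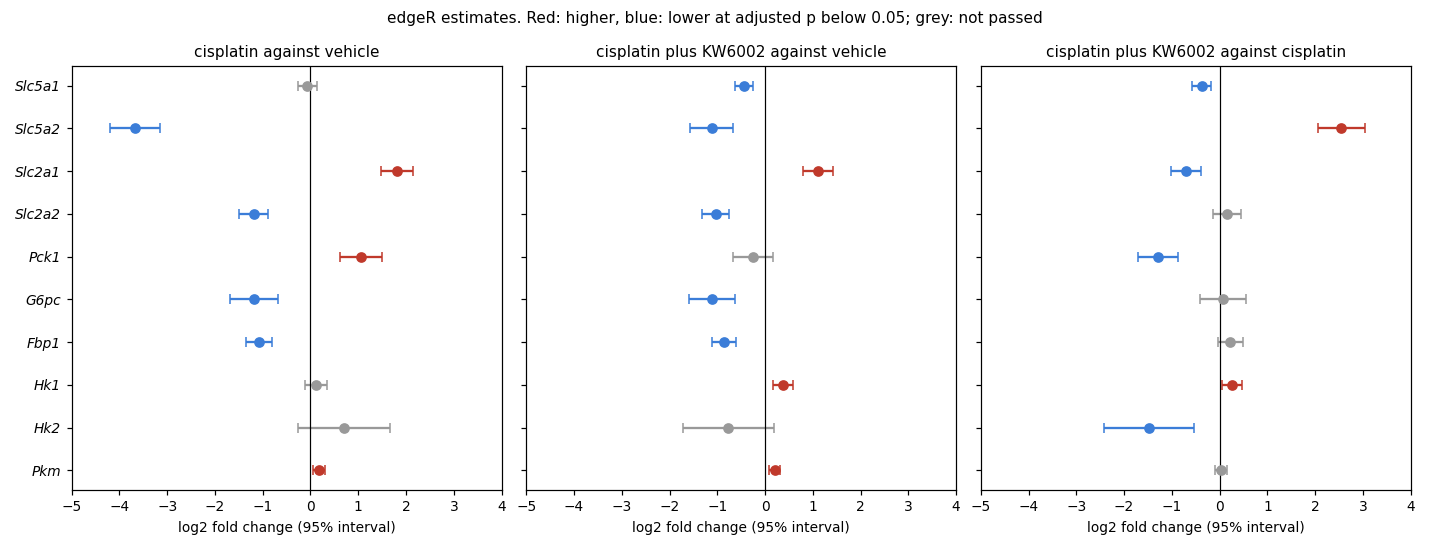
Log2 fold change of each gene for cisplatin relative to vehicle, both drugs relative to vehicle, and both drugs relative to cisplatin, with the 95% interval from edgeR, red for genes higher and blue for genes lower at an adjusted p below 0.05, and grey for those that did not pass. Slc5a2 has the largest fall with cisplatin, at -3.67, and the largest rise when KW6002 was added, at 2.55.

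Of the glycolytic members, Hk1 and Pkm had differences of at most 0.37 on the log2 scale, and Hk2 had a larger one. Hk1, the housekeeping hexokinase (chr10:62268855-62379908, minus strand), stood at 138, 141, 212, 176 and 207 CPM in vehicle mice and at 191, 210, 177, 172 and 197 CPM with cisplatin, and this difference did not pass (log2 0.12, 95% interval -0.11 to 0.34, adjusted p = 0.341). With both drugs it was 181, 239, 207, 241, 249 and 241 CPM. Against cisplatin this was 0.26 ± 0.10 higher on the log2 scale (adjusted p = 0.0415), and against vehicle 0.37 ± 0.10 higher (adjusted p = 0.00393). The first of these is fragile: DESeq2 gave an adjusted p of 0.0527, and leaving out any of 7 libraries (cisplatin replicates 1, 3 and 4, and cisplatin plus KW6002 replicates 2, 4, 5 and 6) lost the call, with adjusted p up to 0.102. The second was lost among the mice numbered in the 500s (log2 0.24, adjusted p = 0.0737) and with the fat-marker covariate used for Hk2 (0.09, adjusted p = 0.463), and without 4 libraries with more fat, macrophage or adrenal RNA (0.17, adjusted p = 0.161). Scaled by library size alone, the cisplatin difference was 0.34 (adjusted p = 0.00697), whereas it was -0.019 among the mice in the 500s. Exons of Hk1 overlap those of Hk1os on the other strand.

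Pkm (chr9:59656368-59679375, plus strand) encodes the muscle-type pyruvate kinases. It was 156, 160, 162, 169 and 165 CPM in vehicle mice and 190, 179, 197, 180 and 172 CPM with cisplatin, a small rise without overlap (log2 0.18 ± 0.063, adjusted p = 0.0151). With both drugs it was 164, 189, 168, 197, 190 and 212 CPM, 0.20 ± 0.060 above vehicle on the log2 scale (adjusted p = 0.00690). Against cisplatin the difference was 0.02 (95% interval -0.10 to 0.15, adjusted p = 0.782). Among the mice numbered in the 500s neither rise passed (0.14, adjusted p = 0.189, and 0.16, adjusted p = 0.133). Nor did either without the same 4 libraries (0.15, adjusted p = 0.0650, and 0.13, adjusted p = 0.127), and the fat-marker covariate ended the call for both drugs (adjusted p = 0.111). Exons of Pkm overlap those of Gm49759 on the same strand. Scaling by library size alone raised the median of all tested genes by 0.22 for cisplatin and by 0.16 for both drugs, each relative to vehicle, so changes of this size are relative to the other genes.

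Hk2, the inducible hexokinase (chr6:82725025-82774454, minus strand), was the lowest member and the most uneven. Vehicle mice had 7.87, 12.6, 5.65, 14.1 and 4.49 CPM, KW6002 mice 6.76, 0.784, 3.44, 10.3, 3.20 and 11.3 CPM, cisplatin mice 15.4, 9.12, 19.2, 19.3 and 9.29 CPM, and mice given both drugs 10.2, 2.48, 3.46, 4.96, 6.30 and 3.84 CPM. Cisplatin against vehicle did not pass (log2 0.70, 95% interval -0.27 to 1.67, adjusted p = 0.185). With KW6002 added to cisplatin Hk2 was 2.78-fold lower (log2 -1.47 ± 0.45, adjusted p = 0.00826), although 1 mouse given both drugs, at 10.2 CPM, lay inside the cisplatin range. All 4 fat markers were lower in that comparison too, and their summed level was 29.1 to 363 CPM in vehicle mice, 6.22 to 128 with KW6002, 130 to 235 with cisplatin, and 3.14 to 84.2 with both drugs. Lep was at 0 counts in at least 1 mouse given both drugs. With the mean of the fat markers as a covariate, an alternative chosen once the data were known, the Hk2 difference was -0.01 (adjusted p = 0.992). The summed fat markers of cisplatin mice and of mice given both drugs did not overlap. The fat-marker level and the treatment thus changed together here, and the covariate fit tells them apart only by the spread within groups. The part of each in the Hk2 difference was not tested.

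The second comparison asks what KW6002 changed in cisplatin-treated kidneys. Of the 10 members, 2 were higher (Slc5a2 and Hk1), where 28.6% of all tested genes were higher, and 4 were lower (Slc5a1, Slc2a1, Pck1 and Hk2), where 27.2% were lower. Slc2a2, G6pc, Fbp1 and Pkm did not pass. This comparison shares the cisplatin mice with the first, so opposite directions in both are in part set by the same 5 libraries. Over the same mice, 7 of 10 proximal tubule markers were higher and 0 lower when KW6002 was added, and 3 did not pass. The median log2 fold change of these 10 markers was 0.57. Among them Slc34a1, a phosphate transporter, was well above that median, higher by 3.73 ± 0.38 on the log2 scale. Miox of the same list had a mean of 52.0 CPM with cisplatin and 700 CPM with both drugs. Of the 4 markers of the late part S3, 2 were higher and 0 lower, with a median of 0.60. The part of these marker differences in the values of Slc5a2 was not tested.

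Compared with vehicle, mice given both drugs had 3 members higher (Slc2a1, Hk1 and Pkm), against 29.8% of all tested genes, and 5 lower (Slc5a1, Slc5a2, Slc2a2, G6pc and Fbp1), against 29.9%. Pck1 and Hk2 did not pass. The median log2 fold change of the members was -0.61, and that of all tested genes was 0.00 to 2 decimals.

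KW6002 without cisplatin left no member past the threshold. In edgeR 0 of 10 members were higher, against 0.0175% of tested genes, and 0 were lower, against 0.0%. DESeq2 likewise gave 0 members. At an unadjusted p below 0.05 in edgeR there was 1 of 10 members, Slc2a2, where 11.3% of all tested genes were below it. Slc2a2 was 196, 203, 184, 311, 258 and 267 CPM with KW6002, and the log2 difference from vehicle was -0.35 (95% interval -0.64 to -0.07, adjusted p = 0.333). The interval for Slc5a2 was -0.69 to 0.20 around -0.25, with KW6002 mice at 675, 685, 656, 676, 598 and 570 CPM. For Pck1 it was -0.17 to 0.67 around 0.25, and for G6pc -0.24 to 0.71 around 0.24. Shifts within these intervals are not excluded with 5 and 6 mice.

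The difference between the KW6002 effect with and without cisplatin was tested as an interaction. It was positive for 2 members, where 22.8% of all tested genes were positive, and negative for 3, where 19.9% were negative. Slc5a2 had 2.80 ± 0.31 on the log2 scale (adjusted p = 3.50e-07) and Pck1 -1.55 ± 0.29 (adjusted p = 0.000166). Slc2a1 had -0.89 ± 0.21 (adjusted p = 0.00194) and Slc5a1 -0.38 ± 0.13 (adjusted p = 0.0239). Slc2a2 had 0.50 ± 0.20 (adjusted p = 0.0424), and this call was lost when any of 15 of the 22 libraries was left out, with values between 0.44 and 0.51 there. It held without cisplatin replicate 5, vehicle replicate 3, KW6002 replicates 4 to 6, or cisplatin plus KW6002 replicates 2 and 3. The call for Slc5a1 was lost without cisplatin replicate 5 (-0.31, adjusted p = 0.0546). Among the mice numbered in the 500s the interaction was 0.40 for Slc2a2 (adjusted p = 0.156) and, past the threshold there, 0.38 for Hk1 (adjusted p = 0.0459). Scaled by library size alone it was 0.43 for Slc2a2 (adjusted p = 0.0749). G6pc, Fbp1, Hk1, Hk2 and Pkm did not pass.

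Ratios of 2 genes within a kidney do not depend on the scaling between libraries, and are given as a description with no test. The ratio of Slc5a2 to Slc5a1, in CPM per kilobase, was 10.38 to 18.1 in vehicle mice, 8.34 to 13.9 with KW6002, 0.499 to 1.70 with cisplatin, and 5.31 to 10.35 with both drugs. By merged-exon length, the low-affinity and high-affinity cotransporter transcripts were thus near parity in cisplatin kidneys, where the median was 1.05. With longest-transcript lengths the cisplatin means were 26.4 for Slc5a2 and 18.9 for Slc5a1. Another length shifts a ratio by the same factor in every group. The ratio of Slc2a2 to Slc2a1 was 2.16 to 4.60 in vehicle mice, 1.54 to 4.07 with KW6002, 0.326 to 0.916 with cisplatin, and 0.590 to 1.03 with both drugs. In all 5 cisplatin mice GLUT1 transcript therefore exceeded GLUT2 transcript per kilobase, which was the case in no vehicle mouse.

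The ratio of Pck1 to G6pc set the cisplatin mice apart from every other mouse. It was 2.15 to 4.21 in vehicle mice, 2.15 to 3.66 with KW6002, 11.7 to 14.1 with cisplatin, and 4.18 to 6.82 with both drugs. The ratio of Pck1 to Fbp1 was 1.12 to 1.71 in vehicle, 5.52 to 6.30 with cisplatin, and 1.49 to 2.56 with both drugs. The ratio of G6pc to Hk1, the enzymes that remove and add the phosphate of glucose, was 13.4 to 19.96 in vehicle, 4.42 to 8.46 with cisplatin, and 2.504 to 9.63 with both drugs. Hk1 has 8532 bases of merged exons and 4278 in its longest transcript, so by the latter this ratio is lower in every group.

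**Figure D3:**
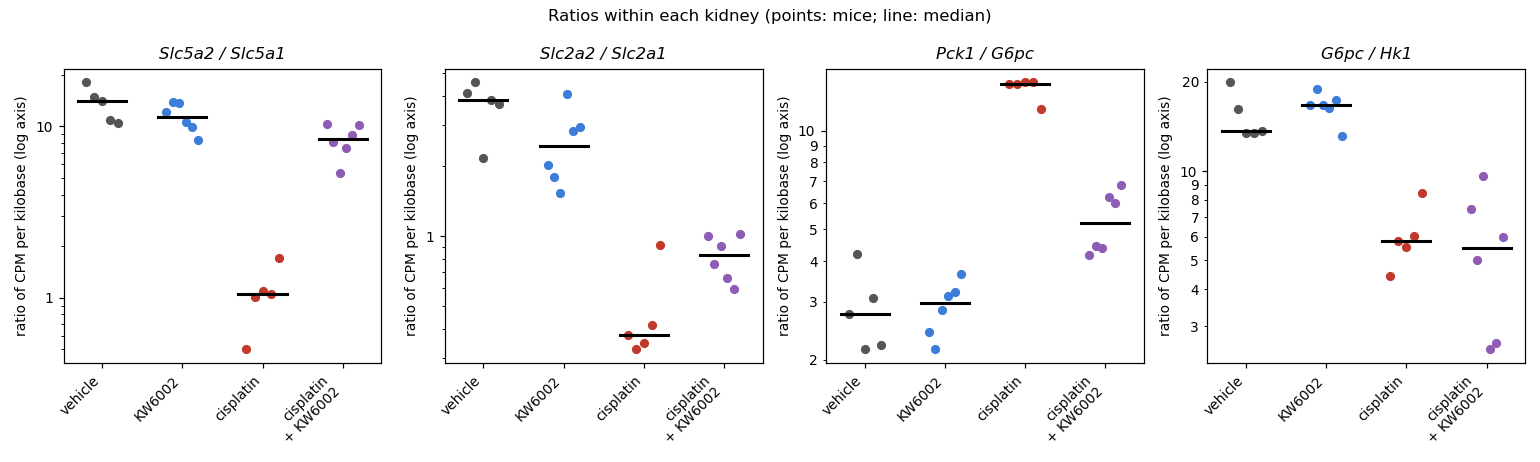
Ratios of CPM per kilobase within each kidney for Slc5a2 to Slc5a1, Slc2a2 to Slc2a1, Pck1 to G6pc, and G6pc to Hk1, on log axes, with points for mice and a line for the group median. The cisplatin mice lie at 0.499 to 1.70 for Slc5a2 to Slc5a1 and at 11.7 to 14.1 for Pck1 to G6pc, apart from the other 3 groups in both.

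Other genes of the same routes were taken from lists of 73 genes, of which 69 were tested. With cisplatin 27 were higher and 32 lower, shares to be read against the 34.6% and 35.9% of all tested genes. With KW6002 added to cisplatin 29 were higher and 20 lower, where the shares of all tested genes were 28.6% and 27.2%. With both drugs against vehicle 20 were higher and 28 lower, where they were 29.8% and 29.9%. The counts of the single lists given next are to be read against the same shares. Both splits against vehicle depend on the scaling: by library size alone that of cisplatin was 32 higher and 28 lower, and that of both drugs 29 higher and 20 lower. The split for KW6002 added to cisplatin was then 27 and 23. In KW6002 against vehicle edgeR and DESeq2 passed 0 of these genes. Of the 69 tested, 15 had an unadjusted p below 0.05 in edgeR, where 11.3% of all tested genes did.

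Among 12 tested sugar transporter genes, 7 were higher and 5 lower with cisplatin. Slc2a6, a lysosomal hexose transporter, rose from 0.141 to 0.441 CPM in vehicle mice to 2.56 to 3.76 CPM (log2 3.33 ± 0.33, adjusted p = 4.45e-09). Slc5a10, a mannose and fructose cotransporter of the kidney, rose from 146 to 183 CPM to 396 to 462 CPM (log2 1.37 ± 0.15, adjusted p = 2.52e-08). It fell to 76.1 to 163 CPM with both drugs, lower than cisplatin by a log2 of -1.92 ± 0.14 (adjusted p = 2.60e-10). Exons of Slc5a10 overlap those of Grap and Fam83g on the other strand. The neuronal-type transporter Slc2a3 rose as well (log2 1.11). Slc2a4, the insulin-regulated transporter, fell from 40.8 to 53.4 CPM to 11.7 to 17.3 CPM (log2 -1.77 ± 0.096, adjusted p = 2.14e-13), and Slc2a12 (log2 -1.73), the fructose transporter Slc2a5 (-1.49) and Slc5a9 (-1.48) fell as well. With KW6002 added, Slc5a9 (log2 1.17), Slc2a4 (1.01) and Slc2a12 (0.64) were higher and Slc2a3 (-0.94) and the urate carrier Slc2a9 (-0.44) were lower. Slc2a5 had 0.12 (adjusted p = 0.561). Pdzk1ip1, which encodes the partner protein MAP17 of SGLT2, moved far less than Slc5a2, with log2 -0.42 ± 0.085 for cisplatin and 0.31 ± 0.081 for added KW6002.

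Of 13 other gluconeogenesis genes tested, 8 were lower and 3 higher with cisplatin. Gk, which encodes glycerol kinase, fell from 844 to 1081 CPM to 200 to 397 CPM (log2 -1.85 ± 0.14, adjusted p = 5.85e-11). Mdh1, cytosolic malate dehydrogenase, fell by 1.47 on the log2 scale, Ldhd by 0.92, Pcx, the pyruvate carboxylase that opens the route, by 0.85, and Slc37a4, which carries glucose-6-phosphate to G6pc, by 0.67. Fbp2 (log2 1.23) and Gpd1 (0.63) rose. Mitochondrial Pck2, at 18.2 to 22.4 CPM in vehicle mice, had 0.07 (adjusted p = 0.484), so the cytosolic and mitochondrial carboxykinase genes gave different calls. That difference was not tested. With KW6002 added, 7 of the 13 were higher, Gk (log2 1.23), Mdh1 (0.62), Ldhb (0.49) and Pck2 (0.31) among them. Gpd1 was lower (-1.23), as was Slc37a4 (-0.31), and Pcx had -0.17 (adjusted p = 0.131). Slc37a4 thus stayed low with both drugs, at -0.98 against vehicle, and so did Pcx, at -1.01.

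Exons of many of these genes overlap a gene on the other strand, among those named Slc2a12, Pck2, Mdh1, Gpd1, Gk, Ldhd, Tkfc, Hk3, Pfkm, Pfkp, Aldoa, Tpi1, Gapdh, Pklr, Txnip and Mlxipl. Among genes by which fructose enters these routes, Khk, ketohexokinase, fell with cisplatin from 514 to 610 CPM to 226 to 382 CPM (log2 -0.92 ± 0.097, adjusted p = 1.50e-08), and Tkfc, triokinase, was higher (0.28). With KW6002 added, Khk was 0.32 higher and Tkfc was lower (-0.70).

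**Figure D4:**
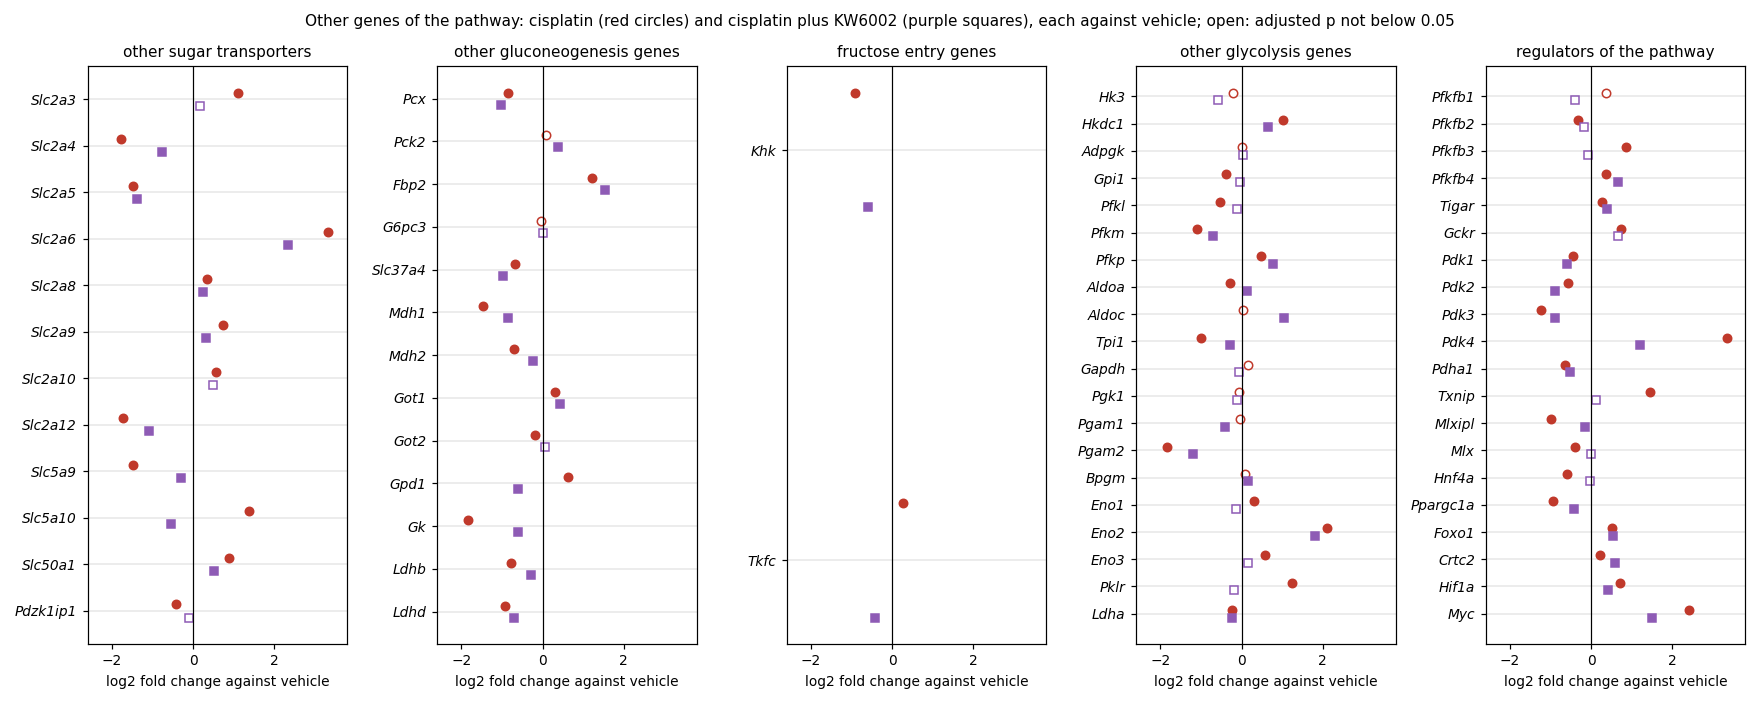
Log2 fold change against vehicle of other genes of the pathway, in 5 lists, for cisplatin (red circles) and cisplatin plus KW6002 (purple squares), with open symbols where the adjusted p was not below 0.05. Pdk4 (3.36), Slc2a6 (3.33) and Myc (2.42) lie farthest to the right with cisplatin.

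Among 20 other glycolysis genes tested, 6 were higher and 7 lower with cisplatin. Scaled by library size only, 9 were higher and 5 lower. Eno2, neuronal enolase, rose (log2 2.09 ± 0.17, adjusted p = 2.23e-10) from 1.04 to 2.30 CPM in vehicle mice, and Hkdc1, a hexokinase relative, rose (1.03). Pklr, the liver and red cell pyruvate kinase, rose from 51.7 to 64.1 CPM to 119 to 144 CPM (1.24 ± 0.085, adjusted p = 1.08e-11) and stood at 43.5 to 64.1 CPM with both drugs. Of the phosphofructokinase genes, Pfkm (-1.10) and Pfkl (-0.53) fell and Pfkp (0.48) rose. Pgam2 (-1.85), Tpi1 (-1.01) and Ldha (-0.24) fell. Hk3 did not pass (-0.21). With KW6002 added, Pklr (-1.42), Eno1 (-0.44) and Hkdc1 (-0.37) were lower, and Tpi1 (0.73), Pgam2 (0.66), Pfkl (0.43), Aldoa (0.41), Pfkm (0.38) and Pfkp (0.31) were higher. Gapdh, Pgk1 and Pgam1 have near-identical copies in the genome that unique alignment cannot separate, and their low values, 10.4 to 13.9 CPM for Gapdh in vehicle mice, are uncertain.

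Of 21 regulators, 10 were higher and 10 lower with cisplatin. Pdk4, a kinase that shuts pyruvate dehydrogenase, rose from 41.0 to 96.3 CPM to 634 to 722 CPM (log2 3.36 ± 0.24, adjusted p = 2.72e-11) and was lower with both drugs, at 101 to 238 CPM (log2 -2.15 ± 0.22 against cisplatin, adjusted p = 2.52e-08). Txnip, an inhibitor of glucose uptake, rose from 346.5 to 804 CPM to 1508 to 1698 CPM (log2 1.46) and was lower with both drugs than with cisplatin (-1.35). Myc (2.42) and Pfkfb3 (0.87) rose and were lower with KW6002 added (-0.92 and -0.94). Pdk3 (-1.24), the glucose-sensing factor gene Mlxipl (-0.99) and the coactivator gene Ppargc1a (-0.93) fell, as did Hnf4a (-0.59 ± 0.065), which encodes a factor that drives proximal tubule genes. With KW6002 added, Mlxipl (0.83), Hnf4a (0.57), Ppargc1a (0.51) and Pdk3 (0.34) were higher.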

How the data were processed

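RNA-Seq libraries of 22 mouse kidneys were analysed, 1 library per mouse. The authors made poly(A) libraries with a kit that keeps strand, read 50 bases from 1 end, aligned to mm10 with STAR and counted uniquely aligned reads per Ensembl gene with HTSeq 0.6.1p1. The deposited values are raw counts per gene, not normalized. Whether strand was used in counting is not given in the sources used here. Symbols, positions and exon lengths came from GENCODE M21, which covers the same build. Another 66 columns are empty and unnamed and stayed unused, and genes with no symbol held 0.00459% of counts.

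Genes were kept by filterByExpr (10 counts, at least 5 libraries, 15 in all). One edgeR 4.0.16 fit in R 4.3.3 (TMM, a mean for each group, quasi-likelihood F test) covered all libraries, and p-values were Benjamini-Hochberg adjusted over the 17131 genes, with calls at 0.05. SE and intervals are on the log2 scale. Deviations of same-numbered mice of different groups had a median correlation of 0.00846 (31 pairs), and those of differently numbered mice -0.00142 (150 pairs). Correlations over 0.1 were found in 7 of the 31 and 12 of the 150, and reached 0.405 and 0.337. With both medians this small, replicate numbers were not treated as pairs, though a shared deviation of some pairs is not excluded.

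Alternatives were DESeq2 1.42.0, relative log expression factors, library size only, other filters, a fit of the compared groups alone, a block for replicate number, the label series as a covariate or only the mice in the 500s, a stricter call, and each library left out. A fat-marker covariate, and leaving out 4 libraries with more fat, macrophage or adrenal RNA, were chosen with the data already known. The fit was also run on simulated data in which a small share of genes was changed, evenly in both directions. In the real data 70.5% of tested genes passed in cisplatin against vehicle, a case which that run does not cover. The members, gene lists, markers and tests were chosen with earlier results of these data known. Named genes are the members, a fixed set of isoenzymes and regulators, and, per list, up to 3 genes per direction with the largest change, an adjusted p below 0.05 and no overlap between groups, in cisplatin against vehicle and in cisplatin plus KW6002 against cisplatin. Some listed genes count in the totals but are not reported here.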

Additional observations from a re-analysis of the deposited data

Results flagged for a closer look

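Cisplatin replicate 5 stood apart from the other 4 cisplatin mice for Slc2a1, at 128 CPM, and for Slc2a2, at 193 CPM. These were the 2 such cases in 40 sets of mice examined by Dixon's gap criterion, and chance alone gives about 1 in 20 sets. The same mouse had the highest summed proximal tubule markers of its group, 7988 CPM.

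The KW6002 effect differed between kidneys with and without cisplatin, by the interaction term, for 5 members. The values on the log2 scale were -0.38 for Slc5a1, 2.80 for Slc5a2, -0.89 for Slc2a1, 0.50 for Slc2a2 and -1.55 for Pck1.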

How the results depend on the processing

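With the stricter call (adjusted p under 0.01, log2 fold change past 1 either way), members passing fell to 3 in cisplatin plus KW6002 against cisplatin, 4 in cisplatin plus KW6002 against vehicle and 2 in the interaction, and other pathway genes to 20 in cisplatin against vehicle, 9, 10 and 10 in the same order. Leaving out the 4 libraries with more fat, macrophage or adrenal RNA left 3 members in the interaction and ended the calls of Pkm in cisplatin against vehicle and of Pkm and Hk1 in cisplatin plus KW6002 against vehicle. Every difference that turned was not passing in the fit where it turned, and among those only Hk1 in cisplatin plus KW6002 against cisplatin passes in the report. With library size only, Slc5a1 was 0.15 in cisplatin against vehicle and Pkm -0.041 in cisplatin plus KW6002 against cisplatin. Among mice in the 500s, Hk1 was -0.019 in cisplatin against vehicle, and in KW6002 against vehicle Slc5a1 was -0.025, Slc2a1 -0.030 and Hk1 -0.12. With the label series as a covariate Slc5a1 was -0.027 in KW6002 against vehicle. With the fat covariate, in cisplatin plus KW6002 against cisplatin G6pc was -0.077, Hk1 -0.075 and Pkm -0.027, Hk2 was 0.49 in cisplatin plus KW6002 against vehicle, Hk1 was -0.040 in KW6002 against vehicle, and in the interaction Hk1 was -0.036 and Hk2 0.13. Without the 4 libraries Hk1 was -0.068 in cisplatin against vehicle and -0.082 in KW6002 against vehicle, Pkm -0.020 in cisplatin plus KW6002 against cisplatin, and Slc5a1 -0.081 in KW6002 against vehicle. The causes were not tested.

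With the replicate number as a block, Hk1 in cisplatin plus KW6002 against cisplatin was 0.25 (adjusted p = 0.0555), Pkm there was -0.0024, Slc5a1 in KW6002 against vehicle was -0.034, and no other member's call changed. The main fit did not treat these numbers as pairs.

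With each library left out in turn, members passing were 7 in cisplatin against vehicle, 5 to 8 in cisplatin plus KW6002 against cisplatin, 8 in cisplatin plus KW6002 against vehicle, 0 with KW6002 alone and 4 to 5 in the interaction. Other pathway genes were 57 to 59, 47 to 50, 46 to 50, 0 and 39 to 42. Sign changes among these were limited to Slc5a1 in KW6002 against vehicle (-0.050 to 0.057), G6pc (-0.13 to 0.24) and Pkm (-0.023 to 0.057) in cisplatin plus KW6002 against cisplatin, and G6pc in the interaction (-0.37 to 0.0041). The member with the lowest counts was Hk2, at 30 to 722 per library.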
